A study of Mus musculus with 23 samples.

Results

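Cxxc1 and 9 other subunits of the SETD1 histone methyltransferase complexes were followed through oocyte growth, fertilization and the first cleavage in mice. The 10 genes were the rows of the deposited expression table with the symbols Cxxc1, Setd1a, Setd1b, Ash2l, Rbbp5, Wdr5, Dpy30, Wdr82, Hcfc1 and Bod1l, out of 24506 genes in all, and each of them passed the filter on low values. RNA sequencing had been done on germinal vesicle (GV) oocytes, which are fully grown and rest in the first meiotic prophase, on zygotes and on 2-cell embryos. The 23 libraries formed 8 groups of 3, apart from wild-type 2-cell embryos with 2. Wild-type GV oocytes came from females of 3 weeks and of 3 months. Deletion GV oocytes came from 3-week Cxxc1fl/fl;Zp3-Cre females and from 3-month Cxxc1fl/fl;Gdf9-Cre females. Zygotes and 2-cell embryos had wild-type parents on both sides, or a Cxxc1fl/fl;Zp3-Cre mother and a wild-type father, so that the embryos called deletion embryos below had no intact maternal copy of Cxxc1 but inherited an intact paternal copy. Zp3-Cre acts in growing oocytes and Gdf9-Cre from an earlier follicle stage, and both leave the somatic cells of the ovary unrecombined. Neither the age of the embryos' mothers nor the floxed exons could be read from the labels. The labels do not say whether the libraries within a group had different animals as their source, so each p-value reflects the spread among these libraries, and that spread may be purely technical.

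The SETD1 complexes place methyl groups on lysine 4 of histone H3 (H3K4), mostly as the trimethyl mark found at active promoters. Setd1a or Setd1b is the catalytic subunit. Ash2l, Rbbp5, Wdr5 and Dpy30 form the core that all KMT2 family methyltransferases share and that is needed for full catalytic activity. Cxxc1 encodes CFP1, whose CXXC zinc finger binds unmethylated CpG dinucleotides and brings the complex to CpG-rich promoters, and whose PHD finger reads the mark itself. Wdr82 links the complex to RNA polymerase II, Hcfc1 is a scaffold that joins it to transcription factors, and Bod1l binds Setd1a and protects stalled replication forks. Growing oocytes accumulate H3K4 methylation over much of the genome, and the early embryo lives on RNA laid down by the mother until it transcribes its own genome, which in the mouse happens largely at the 2-cell stage.

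Since CFP1 recognises CpG, the 250 bases before the transcription start of 3 subunit genes are shown with CG in capitals: Bod1l and Hcfc1, which were lower in deletion 2-cell embryos, and Rbbp5, which was higher there. The sequences are from RefSeq on GRCm38.p6, which may not be the build of the deposited table, and are read 5′ to 3′ on the strand of the gene. Those of Bod1l lie at chr5:41844316-41844565, minus strand, those of Hcfc1 at chrX:73966358-73966607, minus strand, and those of Rbbp5 at chr1:132477117-132477366, plus strand.
Bod1l: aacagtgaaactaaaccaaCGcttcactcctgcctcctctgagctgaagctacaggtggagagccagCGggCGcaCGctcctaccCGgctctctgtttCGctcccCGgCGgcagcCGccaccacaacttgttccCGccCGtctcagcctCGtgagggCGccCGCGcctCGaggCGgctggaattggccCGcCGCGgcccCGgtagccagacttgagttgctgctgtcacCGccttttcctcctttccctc
Hcfc1: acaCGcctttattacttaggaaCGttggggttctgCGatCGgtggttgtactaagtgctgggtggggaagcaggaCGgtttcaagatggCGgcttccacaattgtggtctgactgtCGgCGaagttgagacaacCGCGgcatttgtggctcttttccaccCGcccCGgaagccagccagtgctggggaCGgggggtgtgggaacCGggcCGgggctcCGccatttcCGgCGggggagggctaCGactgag
Rbbp5: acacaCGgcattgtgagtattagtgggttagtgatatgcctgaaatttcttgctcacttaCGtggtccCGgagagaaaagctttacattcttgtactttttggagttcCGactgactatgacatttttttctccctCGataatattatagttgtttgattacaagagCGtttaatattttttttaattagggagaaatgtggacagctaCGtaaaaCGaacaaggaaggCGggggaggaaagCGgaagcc
CG, which reads the same on both strands, occurred 22 times before Bod1l, 19 times before Hcfc1 and 10 times before Rbbp5. The median over all 32851 windows of this length was 6, and 92.1% of them held at least 1 CG. Counts are given for windows of 7 of the 10 genes, and not for Cxxc1, Ash2l and Setd1b. The single window of Setd1a, which was also lower in deletion 2-cell embryos, held 25 CG. Dpy30, which like Rbbp5 was higher there, had 4 alternative starts with 1, 21, 28 and 34. The single windows of Wdr5 and Wdr82, not called there, held 12 and 24. Whether CG counts go with the direction of change was not tested. A CG count describes the letters of a window and is no evidence of CFP1 binding there.

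Values are FPKM, fragments scaled to transcript length and to the library total, as deposited. They are relative to the total of a library, so fewer cells and less RNA per cell cannot be told apart in them. FPKM totals ranged from 295901 to 420415. Read totals are not known, but the smallest steps between low values put the libraries within 0.509 to 1.49 times the relative depth of wild-type 3-week GV library 1, with Zp3-Cre GV libraries 3 and 2 the shallowest. All 10 oocyte marker genes reached 1 FPKM in every GV library. Their sum was 927 to 1082 FPKM in wild-type and 2551 to 2926 in deletion 2-cell embryos. The sum of 10 genes of 2-cell genome activation was 249 to 324 and 63.8 to 77.0. The genotypes did not overlap in either sum at the other stages. Oocyte markers were lower in deletion GV oocytes, at most 7085 against at least 8699 FPKM at 3 weeks. At 3 months these limits were 6848 and 8238. In deletion zygotes they were higher, at least 3990 against at most 3564. Activation genes were higher after deletion at each of these stages. They had at least 75.4 against at most 45.5 FPKM at 3 weeks, 109 against 52.9 at 3 months and 28.1 against 15.4 in zygotes. Summed granulosa cell markers were 89.5 to 176 FPKM in Gdf9-Cre GV oocytes against 36.1 to 39.5 in their wild type, with 11 and 4 of 12 markers at 1 FPKM or more in every library. Blood cell markers summed to 7.01 to 9.91 and 0.460 to 1.39, and stromal and epithelial markers to 43.4 to 58.3 and 24.8 to 28.4. Only 1 and 0 of 7 blood markers and 2 and 2 of 8 stromal and epithelial markers reached 1 FPKM in every library. The blood marker Cd68 had a mean of 6.18 against 0.709 FPKM in wild type. Among stromal and epithelial markers Krt8 had 35.4 against 2.15, and Pecam1 went the other way, 15.6 against 24.1. These shifts were not particular to Gdf9-Cre. In 3-week Zp3-Cre oocytes Cd68 had 3.46 against 1.02 FPKM in wild type, Krt8 6.91 against 0.994 and Pecam1 15.1 against 24.2. Deletion zygotes had 4.59 against 2.28 of Cd68 and 21.7 against 36.7 of Pecam1. Deletion 2-cell library 3 stood apart. It correlated at 0.942 and 0.936 with its 2 fellow libraries, which correlated at 0.983 with each other, and it had 224 FPKM of granulosa and 204 of stromal and epithelial markers, against at most 24.0 and 16.8 in them. The part of these differences in the results below was not tested, except that some of the results are also given without library 3.

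Each comparison was read against the share of all 13776 tested genes that passed the same test, limma on log2(FPKM + 1) with a Benjamini-Hochberg adjusted p under 0.05. In 3-week Zp3-Cre GV oocytes 2 of the 10 genes passed, Ash2l higher and Cxxc1 lower, against 29.6% of all genes (18.3% higher and 11.3% lower). In 3-month Gdf9-Cre GV oocytes 7 passed, 4 higher and 3 lower, against 49.5% (34.2% and 15.2%). In deletion zygotes 6 passed, 1 higher and 5 lower, against 46.7% (35.3% and 11.4%). In deletion 2-cell embryos 7 passed, 3 higher and 4 lower, against 66.5% (37.1% and 29.4%), and the same number passed without library 3. Because Cxxc1 was itself the deleted gene, the other subunits accounted for 1, 6, 5 and 6 of these calls. The median log2 fold change of the 10 genes was 0.041, 0.0059, -0.13 and 0.13 in the 4 comparisons, and that of all tested genes 0.093, 0.20, 0.22 and 0.16. Fold changes are given ± SE and levels ± SD over the 3 libraries of a group (2 for wild-type 2-cell embryos). The balance of directions was compared under 3 other scalings: size factors from the median ratio to the geometric mean over libraries (median-of-ratios), quantile normalization, which gives all libraries the same distribution, and equal FPKM totals. The share of higher among all calls was 61.8%, 69.2%, 75.6% and 55.8% in the deposited scale, 45.4%, 48.3%, 41.1% and 46.0% with median-of-ratios scaling, 48.2%, 46.6%, 44.6% and 56.1% with quantile normalization, and 57.9%, 58.0%, 72.9% and 48.7% with equal totals. The median of all genes moved by -0.17 (3 months), -0.25 (zygotes) and -0.19 (2-cell) with median-of-ratios scaling, by -0.22 (3 months) and -0.29 (zygotes) with quantile normalization, and by -0.10 (3 months) and -0.14 (2-cell) with equal totals. Averaged over the 4 comparisons, 8 of the 10 genes passed, all but Wdr5 and Wdr82, against 66.4% of genes. Of 33 alternative analyses, 1 ended the averaged call of Setd1b (0.11) and 1 that of Rbbp5 (0.022), while 3 and 2 called Wdr5 and Wdr82 lower. The Rbbp5 average of 0.31 joined 0.08, 0.06 and 0.03 in oocytes and zygotes with 1.06 in 2-cell embryos.

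**Figure D1:**
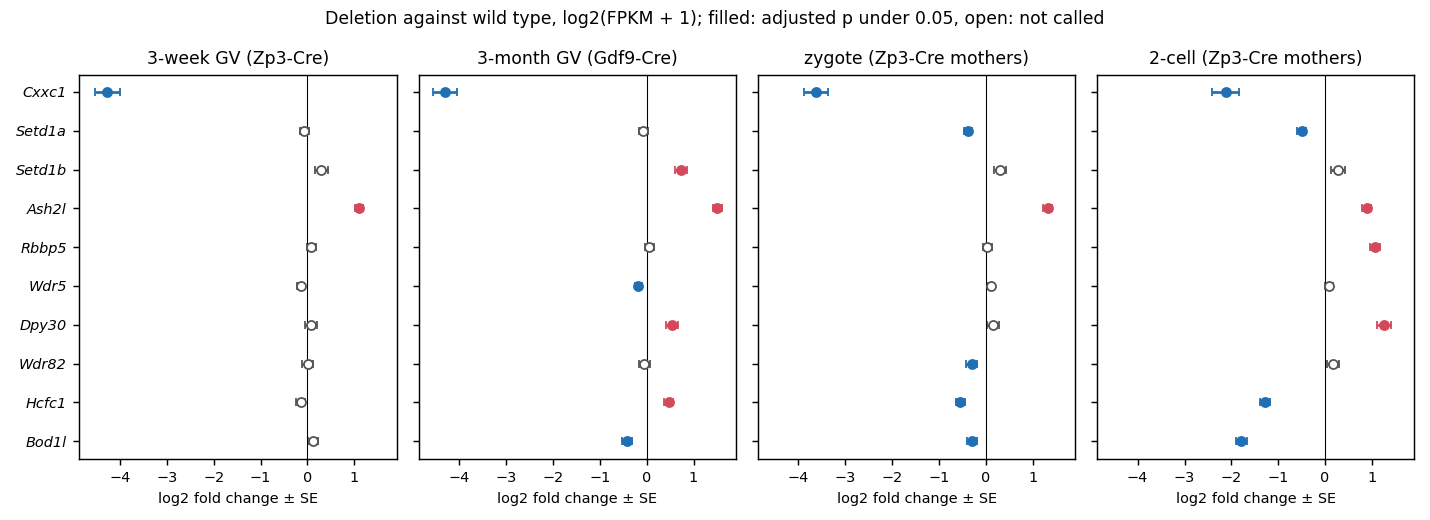
Log2 fold changes on the log2(FPKM + 1) scale (horizontal axis, ± SE) of the 10 genes (vertical axis) in deletion against wild-type libraries, 1 panel per comparison; filled points passed the test and open points did not. Cxxc1 is far to the left and Ash2l to the right in all 4 panels, and in zygotes the small open values of Rbbp5, Wdr5 and Dpy30 turn negative with median-of-ratios scaling.

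Cxxc1 RNA was strongly reduced wherever it had been deleted, with no overlap between deletion and wild-type libraries at any stage. Its wild-type level fell between the zygote and the 2-cell stage. The 3 wild-type libraries of 3-week GV oocytes had 39.9, 37.9 and 41.5 FPKM and the 3 Zp3-Cre libraries 0.893, 1.02 and 1.49 (log2 fold change -4.27 ± 0.26, limma adjusted p = 8.88e-10). In 3-month oocytes the values were 35.7, 36.0 and 38.5 in wild type and 0.975, 0.698 and 1.10 with Gdf9-Cre (log2 fold change -4.30 ± 0.26, limma adjusted p = 4.40e-10). The mean level was thus 0.0285 and 0.0252 of wild type under the 2 drivers. Zygotes of wild-type mothers had 29.1, 24.0 and 30.7 FPKM and those of deletion mothers 1.29, 1.11 and 1.61 (log2 fold change -3.63 ± 0.26, limma adjusted p = 6.19e-10). At the 2-cell stage wild-type embryos had 9.94 and 11 and deletion embryos 1.17, 0.626 and 4.16 (log2 fold change -2.13 ± 0.29, limma adjusted p = 2.37e-06). The highest of these, 4.16, was library 3, which stood apart, and without it the log2 fold change was -2.61. FPKM covers the whole transcript, including any exons outside the floxed part. Fold changes on this scale understate the change of genes near 1 FPKM.

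**Figure D2:**
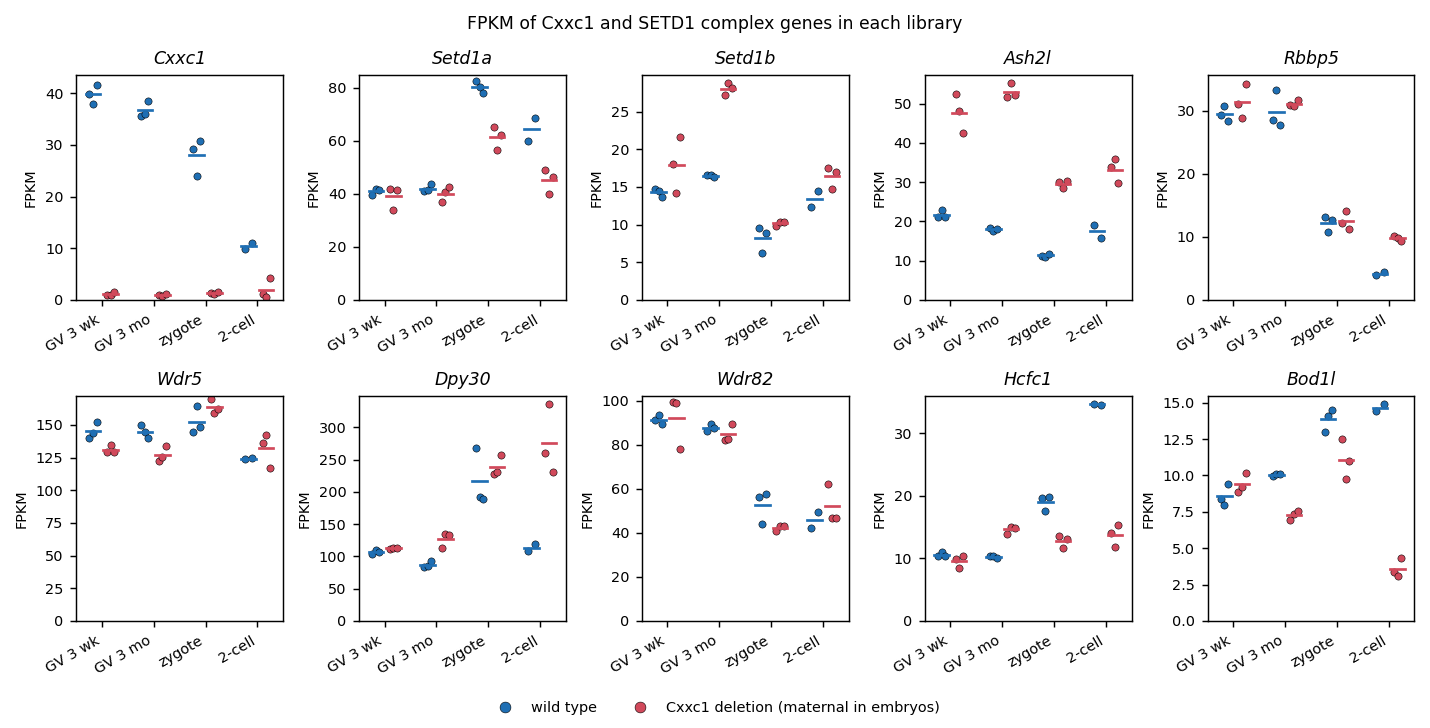
FPKM (vertical axis, linear, from 0) of each of the 10 genes in every library, by stage (horizontal axis); blue points are wild type, red points are deletion, and bars are group means. Cxxc1 and Ash2l separate by genotype at all 4 stages, whereas Rbbp5, Hcfc1 and Bod1l separate most widely at the 2-cell stage.

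Of the catalytic subunits, Setd1a was lower in embryos without maternal Cxxc1 and Setd1b was higher in 3-month Gdf9-Cre oocytes. Setd1a ranged from 33.9 to 43.5 FPKM in all 12 GV libraries, and its deletion effect did not pass there (log2 fold change -0.07 ± 0.092 at 3 weeks and -0.07 ± 0.092 at 3 months). Median-of-ratios scaling and quantile normalization called it lower at 3 months, at -0.31 and -0.26. In zygotes Setd1a had 82.5, 80.2 and 77.8 FPKM in wild type and 65.2, 56.4 and 62.3 in deletion libraries (log2 fold change -0.38 ± 0.092, limma adjusted p = 0.00179). At the 2-cell stage the values were 59.8 and 68.8 against 49.0, 40.1 and 46.2 (log2 fold change -0.50 ± 0.10, limma adjusted p = 2.45e-04). Genotypes did not overlap at either embryonic stage. Median-of-ratios scaling gave larger falls, -0.99 in zygotes and -0.78 in 2-cell embryos. Setd1b, the paralog with the same catalytic role, rose in 3-month oocytes from 16.6, 16.6 and 16.3 FPKM to 27.1, 28.8 and 28.2 (log2 fold change 0.73 ± 0.13, limma adjusted p = 1.62e-04). Its other 3 deletion effects were positive in the deposited scale without passing, and the zygote effect was negative with median-of-ratios scaling (-0.25) and quantile normalization (-0.19). At 3 weeks its values were 14.7, 14.5 and 13.6 in wild type and 18.0, 14.2 and 21.7 with Zp3-Cre (log2 fold change 0.30 ± 0.13, limma adjusted p = 0.105), and the genotypes overlapped. Zygotes had 9.49, 6.22 and 8.83 in wild type against 9.80, 10.4 and 10.3 FPKM (log2 fold change 0.30 ± 0.13, limma adjusted p = 0.0702). In 2-cell embryos the values were 12.3 and 14.4 in wild type against 17.5, 14.7 and 17 (log2 fold change 0.28 ± 0.15, limma adjusted p = 0.105). At both embryonic stages every deletion library was above every wild-type library. The 3-week effect passed without Zp3-Cre library 2 (0.44), the zygote effect without wild-type library 1 (0.41) and the 2-cell effect with quantile normalization (0.37).

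Ash2l, the core subunit that pairs with Rbbp5 to stimulate the methyltransferase, was higher in deletion libraries at every stage. Its 3-week values were 21.1, 23 and 21.2 FPKM in wild type and 52.6, 48.1 and 42.4 with Zp3-Cre (log2 fold change 1.09 ± 0.088, limma adjusted p = 4.58e-08). At 3 months they were 18.4, 17.6 and 18.0 in wild type against 51.8, 55.2 and 52.2 (log2 fold change 1.51 ± 0.088, limma adjusted p = 2.83e-10). The difference persisted after fertilization, with 11.3, 11 and 11.6 FPKM in wild-type and 30.1, 28.6 and 30.2 in deletion zygotes (log2 fold change 1.31 ± 0.088, limma adjusted p = 2.24e-10). In 2-cell embryos the values were 19.1 and 15.8 in wild type against 33.8, 35.8 and 29.8 (log2 fold change 0.89 ± 0.10, limma adjusted p = 1.36e-07). The lowest deletion library exceeded the highest wild-type library at each stage, and the mean was 2.19, 2.95, 2.62 and 1.90 times wild type. Quantile normalization lowered the zygote effect to 0.74 and median-of-ratios scaling to 0.75, and both kept the call.

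The other core subunits differed from Ash2l. Rbbp5, the WD-repeat partner of Ash2l, was at 27.7 to 34.3 FPKM in the 12 GV libraries and 10.7 to 14.1 in the 6 zygote libraries, with overlapping genotypes at each of these stages. At the 2-cell stage it rose from 4.0 and 4.36 FPKM in wild type to 10.2, 9.81 and 9.42 in deletion embryos (log2 fold change 1.06 ± 0.11, limma adjusted p = 5.46e-08). It passed at no other stage in the deposited scale, but in zygotes median-of-ratios scaling and quantile normalization called it lower (-0.54 and -0.39). Dpy30, a small dimeric subunit that binds Ash2l, had 108 and 119 FPKM in wild-type and 259.7, 336 and 231 in deletion 2-cell embryos (log2 fold change 1.26 ± 0.14, limma adjusted p = 1.98e-07), which quantile normalization lowered to 0.77. In 3-month oocytes it was at 83.0, 85.8 and 92.5 in wild type against 113, 134 and 133 (log2 fold change 0.53 ± 0.13, limma adjusted p = 0.00188), a call lost with median-of-ratios scaling (0.29, limma adjusted p = 0.123). At 3 weeks Dpy30 had 104, 109.7 and 107 FPKM in wild type and 111, 113 and 114 with Zp3-Cre (log2 fold change 0.08 ± 0.13, limma adjusted p = 0.710), which did not pass. Zygotes had 268, 192 and 189 in wild type against 227, 231 and 256, overlapping between genotypes (log2 fold change 0.16 ± 0.13, limma adjusted p = 0.354). This zygote effect was called lower with median-of-ratios scaling (-0.45) and higher without wild-type zygote library 1 (0.32). Wdr5, which presents the histone tail and also serves complexes outside this family, varied least, from 117 to 169.7 FPKM over all 23 libraries. At 3 months it had 149.5, 144 and 139.6 FPKM in wild type and 122, 126 and 134 with Gdf9-Cre, its one deletion effect that passed (log2 fold change -0.18 ± 0.074, limma adjusted p = 0.0471). The call was lost in 7 of 16 alternative analyses, among them those without any 1 of the 3 wild-type libraries or without Gdf9-Cre library 1 or 2 (limma adjusted p = 0.0564 to 0.147). The other Wdr5 effects were -0.15 ± 0.074 at 3 weeks, 0.10 ± 0.074 in zygotes and 0.08 ± 0.082 in 2-cell embryos. With median-of-ratios scaling the zygote effect was called lower (-0.50), and with quantile normalization the 3-week effect (-0.19) and the 2-cell effect (-0.28).

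Outside the catalytic subunits and the shared core, Bod1l and Hcfc1 were lower in embryos without maternal Cxxc1, most of all at the 2-cell stage. Bod1l had 14.4 and 14.9 FPKM in wild-type 2-cell embryos and 3.35, 3.06 and 4.29 in deletion embryos (log2 fold change -1.78 ± 0.12, limma adjusted p = 1.11e-10), 0.244 times wild type. In zygotes it was at 13.0, 14.1 and 14.5 in wild type against 12.5, 9.77 and 11 (log2 fold change -0.30 ± 0.11, limma adjusted p = 0.0237), a call that 5 of 16 alternatives lost, among them those without wild-type library 2 or 3 or deletion library 2 or 3 (limma adjusted p = 0.0527 to 0.125). Median-of-ratios scaling gave it as -0.88 and quantile normalization as -0.69. It was also lower in 3-month Gdf9-Cre oocytes, 6.94, 7.37 and 7.53 FPKM against 9.95, 10.1 and 10.1 (log2 fold change -0.42 ± 0.11, limma adjusted p = 0.00301), but not called at 3 weeks, with 8.41, 7.97 and 9.42 in wild type and 8.89, 9.20 and 10.2 with Zp3-Cre (log2 fold change 0.12 ± 0.11, limma adjusted p = 0.448). Hcfc1 was higher in Gdf9-Cre oocytes and lower in embryos of Zp3-Cre mothers. In 3-month oocytes it rose from 10.4, 10.4 and 10.1 FPKM to 14, 15.1 and 14.8 (log2 fold change 0.47 ± 0.10, limma adjusted p = 5.50e-04). In zygotes it fell from 19.7, 17.6 and 19.8 to 13.6, 11.6 and 13.1 (log2 fold change -0.54 ± 0.10, limma adjusted p = 9.72e-05). In 2-cell embryos it fell from 34.7 and 34.5 to 14, 11.8 and 15.4 (log2 fold change -1.28 ± 0.11, limma adjusted p = 3.00e-09). All of these Hcfc1 calls kept their direction under every scaling run, though median-of-ratios scaling gave 0.23 at 3 months and -1.13 in zygotes. The 3-week Zp3-Cre effect was not called (10.3, 11.1 and 10.4 against 9.91, 8.43 and 10.4 FPKM, log2 fold change -0.14 ± 0.10, limma adjusted p = 0.311). Granulosa cell markers were higher in the same Gdf9-Cre libraries, and their part in the 3-month values of all 10 genes was not tested. The summed oocyte and genome activation markers given above differed between genotypes at every stage, and their part in the values of the 10 genes was not tested either.

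Wdr82, the adaptor to RNA polymerase II, had 91.2, 93.4 and 89.5 FPKM in wild-type and 99.4, 99.1 and 78.0 in Zp3-Cre 3-week GV oocytes (log2 fold change 0.00 ± 0.12, limma adjusted p = 0.996), with overlapping genotypes. At 3 months the values were 86.1, 89.3 and 87.5 in wild type against 82.1, 82.6 and 89.6 (log2 fold change -0.05 ± 0.12, limma adjusted p = 0.764). Its one deletion call was in zygotes, 56.4, 44.0 and 57.6 FPKM against 40.7, 43.1 and 43.2 (log2 fold change -0.30 ± 0.12, limma adjusted p = 0.0401). Of 16 alternatives 9 lost it, among them those without wild-type library 1 or 3 or any 1 of the deletion libraries (limma adjusted p = 0.0646 to 0.165). In 2-cell embryos Wdr82 had 42.1 and 49.3 in wild type against 62.2, 46.9 and 46.9 FPKM (log2 fold change 0.17 ± 0.13, limma adjusted p = 0.246), an effect that limma called higher with array weights, which weight each library by its own scatter (0.36).

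Ratios of subunits within a library do not depend on any single factor by which that library is multiplied, though quantile normalization can change them, and 6 were tested by exact two-sided permutation of genotype within the 4 stages. The ratio of Ash2l to the sum of Setd1a and Setd1b in 3-week oocytes ranged over 0.387 to 0.407 in the wild type, against 0.673 to 0.998 after deletion. In 3-month oocytes it was 0.300 to 0.320 and 0.739 to 0.807, in zygotes 0.122 to 0.134 and 0.401 to 0.428, and in 2-cell embryos 0.190 to 0.265 and 0.471 to 0.654. Wild-type and deletion libraries did not overlap at any stage, and the log2 difference was 1.09, 1.34, 1.70 and 1.26. Its mean was 1.35 (permutation p = 1.25e-05, the smallest the design allows; adjusted over 6 ratios, 3.75e-05). The balance of the catalytic subunits shifted as well. Setd1b over Setd1a differed by 0.38, 0.84, 0.73 and 0.81 on the log2 scale, a mean of 0.69 with the same exact p. At the 2-cell stage this ratio ranged over 0.206 to 0.209 in wild-type embryos, against 0.358 to 0.369 in deletion embryos. Dpy30 over the catalytic sum differed by 0.04, 0.32, 0.46 and 1.60 (mean 0.61, exact permutation p = 2.25e-04, adjusted 4.50e-04). The ratio of Rbbp5 differed by 0.045, -0.16, 0.34 and 1.57 (mean 0.45, exact permutation p = 0.0195, adjusted 0.0293). Leaving out any 1 of the 5 libraries of 2-cell embryos ended the Rbbp5 call. The permutation p adjusted over 6 ratios was 0.0976 without any 1 of the deletion libraries. Each of these omissions leaves fewer arrangements of genotype, so the lost call cannot show that the difference rests on a single library. The mean Rbbp5 difference stayed at 0.42 to 0.47 when each library was left out in turn. Wdr5 over the catalytic sum differed by -0.19, -0.40, 0.41 and 0.42, and Wdr82 by -0.036, -0.27, -0.00035 and 0.52. With signs that changed between stages, their means were 0.060 and 0.053 (exact permutation p = 0.580 and 0.588, both 0.588 adjusted). A test on the mean cannot show changes of opposite sign. The genotypes did not overlap in the Wdr5 ratio at 3 months, in zygotes or in 2-cell embryos. In the Wdr82 ratio they did not overlap at 3 months or in 2-cell embryos.

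**Figure D3:**
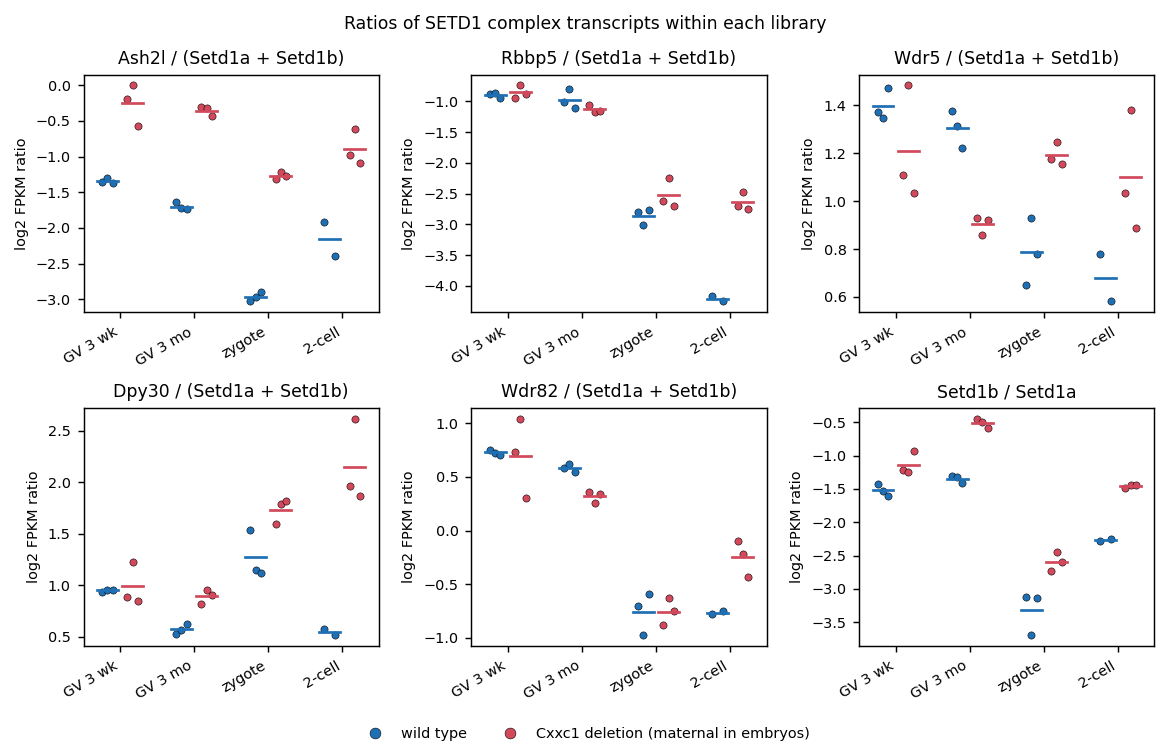
Log2 FPKM ratio within each library (vertical axis, scale set per panel) of 5 subunits to Setd1a plus Setd1b, and of Setd1b to Setd1a, by stage (horizontal axis); blue is wild type, red is deletion, and bars are group means. The Ash2l ratio of every deletion library lies above all wild-type libraries of its stage, and the Dpy30 and Rbbp5 ratios separate most at the 2-cell stage.

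Wild-type libraries showed how the subunits change through development. None of the 10 genes passed between 3 months and 3 weeks in wild-type GV oocytes with limma, against 3.95% of all genes, and 2 had an unadjusted p under 0.05, Ash2l (log2 fold change -0.26) and Dpy30 (-0.29). Between 3-week GV oocytes and zygotes 8 passed, against 70.1% of genes. Setd1a rose from 40.9 ± 1.31 to 80.2 ± 2.35 FPKM (log2 fold change 0.95), Dpy30 from 107 ± 3.01 to 216 ± 44.8 (0.99), Hcfc1 from 10.6 ± 0.406 to 19.0 ± 1.24 (0.79) and Bod1l from 8.60 ± 0.745 to 13.9 ± 0.778 (0.63). Rbbp5 fell from 29.5 ± 1.25 to 12.2 ± 1.32 FPKM (-1.22). The size of these changes depended on the scaling: median-of-ratios scaling gave 1.85 for Setd1a, 1.90 for Dpy30, 1.65 for Hcfc1, 1.48 for Bod1l and -0.35 for Rbbp5, and quantile normalization gave -0.30 for Rbbp5. Ash2l (-0.89), Setd1b (-0.75) and Wdr82 (-0.79) also fell in the deposited scale, but their direction rests on the scaling: median-of-ratios scaling gave -0.030, 0.080 and 0.11, and quantile normalization gave 0.068 for Ash2l and 0.30 for Setd1b. The median of all genes moved by 0.42 and 0.55 under these scalings. Cxxc1 (-0.50 ± 0.26) and Wdr5 (0.07 ± 0.074) did not pass, and Cxxc1 was positive with median-of-ratios scaling (0.38) and quantile normalization (0.15). With those scalings Wdr5 was 0.97 and 0.20, both called higher.

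From zygote to 2-cell embryo 8 of the 10 genes passed in wild type, against 68.5% of genes. Cxxc1 fell from 28.0 ± 3.49 to 10.5 ± 0.779 FPKM (log2 fold change -1.33), Rbbp5 from 12.2 ± 1.32 to 4.18 ± 0.252 (-1.34) and Dpy30 from 216 ± 44.8 to 113 ± 8.08 (-0.91). Hcfc1 rose from 19.0 ± 1.24 to 34.6 ± 0.115 FPKM (0.83). Quantile normalization gave -2.14 for Rbbp5, -0.49 for Dpy30 and 0.48 for Hcfc1. Setd1a (-0.32) was called lower in the deposited scale, a call lost with quantile normalization (-0.14), with equal totals (-0.19) and without wild-type 2-cell library 1 (-0.22). Setd1b (0.66) and Ash2l (0.58) were called higher and Wdr5 (-0.29) lower, and all 3 changed sign with quantile normalization (-0.080, -0.029 and 0.091), which moved the median of all genes by -0.53. Wdr82 (-0.20 ± 0.13) and Bod1l (0.07 ± 0.12) did not pass, but Bod1l was called lower with median-of-ratios scaling (-0.35) and quantile normalization (-0.52).

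The same steps were taken in the deletion groups with some exceptions among the subunits. Between 3-week Zp3-Cre GV oocytes and deletion zygotes 8 of the 10 genes passed, against 64.9% of all genes. Setd1a rose by 0.64, Dpy30 by 1.07, Hcfc1 by 0.38 and Wdr5 by 0.32 on the log2 scale, and Rbbp5 fell by 1.26. Median-of-ratios scaling gave 1.04 for Setd1a, 0.76 for Hcfc1 and 0.73 for Wdr5, and quantile normalization -0.72 for Rbbp5. Wdr82 fell by 1.10 and Ash2l by 0.66 (-0.69 and -0.26 with median-of-ratios scaling), and Setd1b by 0.75 in the deposited scale but not with quantile normalization (-0.14). Bod1l (0.21 ± 0.11, limma adjusted p = 0.0905) and Cxxc1 (0.14 ± 0.26) did not pass, though 5 and 1 of 16 alternatives called them higher. In wild type Bod1l passed over this step (0.63). From deletion zygotes to deletion 2-cell embryos 5 of the 10 passed, against 50.0% of genes. Bod1l fell from 11.1 ± 1.37 to 3.57 ± 0.645 FPKM (log2 fold change -1.41 ± 0.11, limma adjusted p = 3.76e-09). In wild type this step did not pass in the deposited scale, though it did under the scalings given above. Rbbp5 (-0.32), Setd1a (-0.44) and Wdr5 (-0.31) were also called lower and Setd1b (0.64) higher. The Rbbp5 call was lost in 3 of 16 alternatives, without deletion zygote library 2 (-0.23), with array weights and with only the groups compared, which also ended the Wdr5 call. Dpy30 (0.19 ± 0.13) and Hcfc1 (0.09 ± 0.10), which fell and rose in wild type, did not pass. Nor did Ash2l (0.15 ± 0.088, limma adjusted p = 0.156), which was called higher in wild type in the deposited scale. Wdr82 (0.28 ± 0.12, limma adjusted p = 0.0525) did not pass, but 4 of 16 alternatives called it higher. Cxxc1 gave 0.18 ± 0.26 over this step and -0.31 without library 3, neither of which passed.

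Whether the deletion effect itself differed was tested as a difference of differences. Between the Gdf9-Cre effect at 3 months and the Zp3-Cre effect at 3 weeks, where driver and age cannot be told apart, 2 of the 10 genes passed, against 4.89% of all genes: Hcfc1 (difference 0.61 ± 0.14, limma adjusted p = 0.0166) and Bod1l (-0.54 ± 0.15, limma adjusted p = 0.0450). The Bod1l call was lost without any 1 of the 12 libraries other than wild-type 3-week library 3 (limma adjusted p = 0.0572 to 0.111). The difference of Ash2l was 0.42 ± 0.12 with limma adjusted p = 0.0582. Between zygotes and 3-week oocytes 2 passed, against 29.4% of genes, Hcfc1 (-0.40 ± 0.14, limma adjusted p = 0.0306) and Bod1l (-0.42 ± 0.15, limma adjusted p = 0.0396). Hcfc1 was lost without wild-type 3-week library 1 or 3, Zp3-Cre library 1 or 3, wild-type zygote library 1 or 3 or deletion zygote library 2 (-0.39 to -0.34). Bod1l was lost without wild-type 3-week library 1 or 2, Zp3-Cre library 2 or 3, wild-type zygote library 2 or 3 or deletion zygote library 2 or 3 (-0.44 to -0.34). Between 2-cell embryos and zygotes 7 passed, against 53.9% of genes. Bod1l (-1.48 ± 0.16) and Hcfc1 (-0.74 ± 0.14) had lower effects at the 2-cell stage, and Rbbp5 (1.03 ± 0.15) and Dpy30 (1.10 ± 0.19) had higher ones. Their sizes moved with the scaling, Hcfc1 to -0.42 with median-of-ratios scaling, and Rbbp5 to 1.68 and Dpy30 to 0.62 with quantile normalization. The effect on Cxxc1 was smaller in 2-cell embryos (1.51 ± 0.39, and 1.02 without library 3), where the wild-type level was lower too. That of Wdr82 differed by 0.48 ± 0.17, lost without wild-type zygote library 1 or 3, deletion zygote library 1, wild-type 2-cell library 1 or deletion 2-cell library 1 (0.34 to 0.45). The Ash2l effect differed by -0.43 ± 0.13 in the deposited scale, being smaller at the 2-cell stage, turned to 0.15 with quantile normalization and was not called with median-of-ratios scaling (-0.13) or without wild-type 2-cell library 1 (-0.30). Comparisons between stages share the zygote or the 3-week GV libraries.

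FPKM is scaled to length, so levels of the genes are set side by side here as a description. Whether other biases between genes were corrected is not known. In wild-type 3-week GV oocytes the order was Wdr5 (145), Dpy30 (107), Wdr82 (91.4), Setd1a (40.9), Cxxc1 (39.8), Rbbp5 (29.5), Ash2l (21.8), Setd1b (14.3), Hcfc1 (10.6) and Bod1l (8.60). Setd1a and Cxxc1 overlapped in this order, with 39.4 to 42.0 and 37.9 to 41.5 FPKM. Across the 8 groups Cxxc1 ran from 39.8 in wild-type 3-week GV oocytes through 36.7 at 3 months, 28.0 in zygotes and 10.5 in 2-cell embryos to 1.98, 1.34, 1.13 and 0.924 FPKM in deletion 2-cell embryos, zygotes, 3-week and 3-month oocytes. The 2 wild-type GV groups overlapped, as did neighbours among the 4 deletion groups. Setd1a was highest in wild-type zygotes (80.2) and lowest in 3-week Zp3-Cre oocytes (39.1), and the 4 GV groups and deletion 2-cell embryos overlapped with their neighbours, as did wild-type 2-cell embryos with deletion zygotes. Setd1b ran from 28.0 in 3-month Gdf9-Cre oocytes to 8.18 in wild-type zygotes, and Ash2l from 53.1 to 11.3 in the same groups. For Setd1b the neighbours that overlapped were 3-week Zp3-Cre oocytes, wild-type 3-month oocytes and deletion 2-cell embryos, and wild-type 3-week oocytes with wild-type 2-cell embryos. The 4 deletion groups held the 4 highest mean levels of Ash2l, and the oocytes of both drivers overlapped, as did deletion zygotes with deletion 2-cell embryos and wild-type 3-month oocytes with wild-type 2-cell embryos. Rbbp5 ran from 31.4 FPKM in 3-week Zp3-Cre oocytes, with all GV groups overlapping, to 4.18 in wild-type 2-cell embryos. Dpy30 was highest in deletion 2-cell embryos (276) and lowest in wild-type 3-month oocytes (87.1). Its 3 top groups, deletion 2-cell embryos and both kinds of zygote, overlapped in turn, as did 3-month Gdf9-Cre oocytes, wild-type 2-cell embryos and 3-week Zp3-Cre oocytes. Wdr5 was highest in deletion zygotes (164) and lowest in wild-type 2-cell embryos (124), and every neighbour in its order overlapped. Wdr82 ran from 92.2 in 3-week Zp3-Cre oocytes to 42.3 in deletion zygotes, and the 4 embryo groups overlapped in turn, apart from all GV groups. Hcfc1 was highest in wild-type 2-cell embryos (34.6) and lowest in 3-week Zp3-Cre oocytes (9.57), and both wild-type embryo groups stood clear of all others. Bod1l was highest in wild-type 2-cell embryos (14.6), where it overlapped with wild-type zygotes, and lowest in deletion 2-cell embryos (3.57), clear of all other groups.

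For each subunit the 3 genes most like it were those with the highest Pearson r over the 8 group means of log2(FPKM + 1), among tested genes with a mean of at least 5 FPKM. The groups share their libraries and scaling, so r is a description. Cxxc1 was most like Abcc3 (0.956), Slc26a9 (0.954) and Insm1 (0.952). Setd1a was most like Ppard (0.987), 2810403A07Rik (0.981) and Tcl1b4 (0.980), and Setd1b like Aes (0.977), Dstn (0.963) and Pkig (0.955). For Ash2l they were Hist1h4a (0.989), 0610038B21Rik (0.980) and Hist2h2aa1 (0.975), which include 2 histone genes whose near-identical copies may share reads. Rbbp5 had 2310033P09Rik (0.996), Lmnb2 (0.993) and Btrc (0.990), Wdr5 had Tiam1 (0.971), Jag1 (0.944) and Ttyh3 (0.939), and Dpy30 had Smim11 (0.985), Stard3nl (0.983) and Bccip (0.981). Wdr82 was most like 9330102E08Rik (0.995), Ctnnbl1 (0.991) and Prss44 (0.991), Hcfc1 like Hmgb3 (0.989), Khdrbs1 (0.981) and Ncapd2 (0.971), and Bod1l like Cstf1 (0.966), Spag5 (0.956) and Trim33 (0.940).

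The genes around the SETD1 complexes were counted by list. For these lists, rises and falls compare deletion with wild-type libraries of the same stage, and are not changes between stages. Of the other KMT2 methyltransferases and their subunits, which share the core, 11 of 12 were tested, and 0, 1, 2 and 4 were higher and 2, 3, 3 and 2 lower in deletion 3-week oocytes, 3-month oocytes, zygotes and 2-cell embryos. Of all tested genes 29.6%, 49.5%, 46.7% and 66.5% were called in these comparisons. With median-of-ratios scaling 8 and with quantile normalization 7 of them were lower in zygotes. The median log2 fold change of the list was 0.033, -0.21, -0.18 and 0.29, beside the medians of all genes given above, and the 2-cell value was 0.20 without library 3. Psip1, a chromatin tether of the KMT2A complex, fell at 3 weeks from 71.4 ± 2.09 to 52.8 ± 5.85 FPKM (log2 fold change -0.43, limma adjusted p = 4.33e-04) and at 3 months from 83.4 ± 2.26 to 46.7 ± 2.87 FPKM (log2 fold change -0.83, limma adjusted p = 1.40e-07). Kdm6a, the H3K27 demethylase of the KMT2C and KMT2D complexes, fell at 3 weeks from 23.1 ± 0.807 to 19.1 ± 1.16 FPKM (log2 fold change -0.27, limma adjusted p = 0.0208). Men1, which encodes menin, was at 2.17 ± 0.372 FPKM in wild-type and 8.51 ± 2.42 in deletion zygotes (log2 fold change 1.56, limma adjusted p = 1.37e-07). The 3-week oocytes of these genotypes had 52.9 and 54.2 FPKM of Men1. Pagr1a, a subunit of the KMT2C and KMT2D complexes, rose at 3 months from 15 ± 0.674 to 35.1 ± 1.28 FPKM (log2 fold change 1.17, limma adjusted p = 2.94e-05) and in zygotes from 1.09 ± 0.490 to 3.05 ± 1.16 FPKM (log2 fold change 0.94, limma adjusted p = 2.25e-04), and fell in 2-cell embryos from 23 ± 0.417 to 8.31 ± 1.22 FPKM (log2 fold change -1.37, limma adjusted p = 5.74e-06). Kmt2c itself was at 22.3 ± 1.79 FPKM in wild-type and 56.2 ± 14.9 in deletion 2-cell embryos (log2 fold change 1.26, limma adjusted p = 1.13e-06). Zygotes of these genotypes had 65.2 and 73.8 FPKM of Kmt2c.

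Of the H3K4 demethylases, 5 of 6 were tested, and 2, 3, 0 and 2 were higher and 1, 2, 2 and 3 lower in the same order, when 29.6%, 49.5%, 46.7% and 66.5% of all genes were called. The higher calls in oocytes depended on the scale, since median-of-ratios scaling left 0 and 1 of them and quantile normalization 1 and 0. Their median was 0.10, 0.43, -0.12 and -1.12, the last of these -1.31 without library 3. Kdm5c fell at 3 weeks from 6.45 ± 0.181 to 4.35 ± 0.279 FPKM (log2 fold change -0.48, limma adjusted p = 0.0132), at 3 months from 6.57 ± 0.471 to 3.73 ± 0.142 FPKM (log2 fold change -0.68, limma adjusted p = 5.01e-04) and in zygotes from 9.40 ± 0.563 to 6.27 ± 0.387 FPKM (log2 fold change -0.52, limma adjusted p = 0.00429). Kdm1a, also known as LSD1, was called higher at 3 weeks, from 23.6 ± 0.349 to 34.2 ± 0.573 FPKM (log2 fold change 0.51, limma adjusted p = 0.00520), and Kdm5b at 3 months, from 0.780 ± 0.239 to 1.98 ± 0.683 FPKM (log2 fold change 0.73, limma adjusted p = 0.0102), but median-of-ratios scaling ended the call of Kdm1a and quantile normalization that of Kdm5b. Kdm5b was at 69.2 ± 6.58 FPKM in wild-type and 4.34 ± 2.42 in deletion 2-cell embryos (log2 fold change -3.80, limma adjusted p = 7.88e-11). Kdm5a was at 8.41 ± 0.589 and 1.15 ± 0.673 FPKM there (log2 fold change -2.17, limma adjusted p = 3.46e-09). Wild-type and deletion zygotes had 0.711 and 0.761 FPKM of Kdm5b, and 0.110 and 0.233 of Kdm5a. Kdm1b, a demethylase of growing oocytes, fell in zygotes from 99.4 ± 6.08 to 80.8 ± 8.79 FPKM (log2 fold change -0.30, limma adjusted p = 0.0350).

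Ubiquitination of histone H2B, which promotes H3K4 methylation, and the PAF1 complex, which promotes both, were represented by 11 tested genes. Here 4, 7, 7 and 5 were higher, beside 18.3%, 34.2%, 35.3% and 37.1% of all genes, and 0, 0, 0 and 4 lower, beside 11.3%, 15.2%, 11.4% and 29.4%, but with median-of-ratios scaling 1, 1, 3 and 4 were higher and 0, 2, 2 and 5 lower. The median was 0.29, 0.31, 0.37 and 0.34 in the deposited scale, and without deletion library 3 the 2-cell median was -0.0017. Among those that passed at 3 weeks the largest changes were those of Wac, an adaptor of the H2B ubiquitin ligase, from 7.77 ± 0.350 to 11.6 ± 0.885 FPKM (log2 fold change 0.52, limma adjusted p = 1.19e-04), and of the PAF1-associated Rtf1, from 20.1 ± 1.14 to 26.9 ± 4.95 FPKM (log2 fold change 0.39, limma adjusted p = 0.0175). At 3 months they were those of the PAF1 subunits Wdr61, from 4.87 ± 1.12 to 11.1 ± 1.55 FPKM (log2 fold change 1.05, limma adjusted p = 0.00411), and Cdc73, from 6.25 ± 1.08 to 10.5 ± 0.451 FPKM (log2 fold change 0.68, limma adjusted p = 0.00503). Median-of-ratios scaling ended the calls of Rtf1 and Cdc73. The zygote calls included the PAF1 subunit Leo1, at 2.37 ± 0.174 FPKM in wild type and 55.7 ± 5.89 in deletion zygotes (log2 fold change 4.07, limma adjusted p = 1.18e-14). They also included the ubiquitin-conjugating enzyme Ube2a, at 3.22 ± 0.394 and 25.4 ± 7.74 FPKM (log2 fold change 2.61, limma adjusted p = 2.42e-11). Wild-type and Zp3-Cre 3-week oocytes had 56.8 and 59.8 FPKM of Leo1, and 33.5 and 42.0 of Ube2a. At the 2-cell stage Paf1, the subunit that names the complex, was at 85.8 ± 17.7 FPKM in wild-type and 14.2 ± 1.54 in deletion embryos (log2 fold change -2.50, limma adjusted p = 1.71e-12). Zygotes of these genotypes had 4.89 and 6.62 FPKM of Paf1. Ube2a was at 23.2 ± 0.837 and 62.8 ± 9.11 FPKM in 2-cell embryos (log2 fold change 1.39, limma adjusted p = 4.53e-07).

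Readers of H3K4me3 numbered 12 tested genes, of which 1, 3, 4 and 5 were higher and 0, 2, 3 and 4 lower, with 29.6%, 49.5%, 46.7% and 66.5% of all genes called. In zygotes that balance became 1 higher and 7 lower with median-of-ratios scaling and 1 and 5 with quantile normalization. The median of the list was 0.093, 0.012, 0.042 and 0.23, and without library 3 the 2-cell median was 0.23. Ing2, a reader in a histone deacetylase complex, was called higher at 3 weeks, from 5.52 ± 0.145 to 8.55 ± 1.82 FPKM (log2 fold change 0.53, limma adjusted p = 0.0349), a call lost with median-of-ratios scaling and quantile normalization, and at 3 months, from 5.89 ± 1.25 to 10.2 ± 0.340 FPKM (log2 fold change 0.72, limma adjusted p = 0.00318). Ing3, its relative in an acetyltransferase complex, rose at 3 months from 9.23 ± 0.709 to 14 ± 0.301 FPKM (log2 fold change 0.55, limma adjusted p = 3.67e-04). Taf3, the TFIID subunit that binds the mark, rose in zygotes from 35.1 ± 1.77 to 71.6 ± 5.17 FPKM (log2 fold change 1.01, limma adjusted p = 4.37e-08), and Phf2 fell there from 7.87 ± 2.03 to 2.49 ± 0.141 FPKM (log2 fold change -1.32, limma adjusted p = 4.75e-06). The remodeller Chd1 was at 26.9 ± 1.01 FPKM in wild-type and 5.24 ± 0.469 in deletion 2-cell embryos (log2 fold change -2.16, limma adjusted p = 4.97e-12). Ing4 was at 12.3 ± 3.86 and 2.52 ± 2.32 FPKM there (log2 fold change -2.07, limma adjusted p = 2.84e-05). Wild-type and deletion zygotes had 3.83 and 4.47 FPKM of Chd1, and 1.11 and 0.834 of Ing4.

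Among 8 tested genes that share the CXXC domain with CFP1, 0, 1, 0 and 2 were higher and 3, 3, 2 and 3 lower, against 29.6%, 49.5%, 46.7% and 66.5% of all genes called. Their medians were -0.13, -0.11, 0.12 and -0.077. The 2-cell median was -0.44 without library 3 and turned to 0.079 with quantile normalization. Dnmt1, the maintenance DNA methyltransferase, fell at 3 weeks from 1246 ± 18.8 to 590.2 ± 75.6 FPKM (log2 fold change -1.08, limma adjusted p = 0.00359) and at 3 months from 1009.8 ± 21.5 to 384 ± 42.2 FPKM (log2 fold change -1.40, limma adjusted p = 1.89e-04). Tet3, which oxidises methylcytosine in the zygote, fell at 3 weeks from 58.4 ± 5.99 to 31.1 ± 1.17 FPKM (log2 fold change -0.88, limma adjusted p = 6.05e-05) and at 3 months from 69.1 ± 1.32 to 19.8 ± 1.85 FPKM (log2 fold change -1.76, limma adjusted p = 7.62e-09). It was at 584 ± 35.0 FPKM in wild-type and 276 ± 6.77 in deletion zygotes (log2 fold change -1.08, limma adjusted p = 1.20e-06). In 2-cell embryos it was at 23.6 ± 2.52 in wild type and 57.2 ± 16.9 FPKM after deletion (log2 fold change 1.21, limma adjusted p = 6.10e-07), below the zygotes in both genotypes. Fbxl19, an F-box protein with a CXXC finger, fell in zygotes from 45.1 ± 6.47 to 29.8 ± 1.30 FPKM (log2 fold change -0.57, limma adjusted p = 2.17e-04). Tet1, a paralog of Tet3, was at 6.91 ± 0.816 FPKM in wild-type and 0.483 ± 0.0918 in deletion 2-cell embryos (log2 fold change -2.41, limma adjusted p = 5.21e-13). Zygotes of these genotypes had 0.0560 and 0.128 FPKM of Tet1.

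Partners of Wdr82 and Hcfc1 outside the SETD1 complexes, 11 genes, were higher in 2, 5, 5 and 3 cases and lower in 1, 1, 1 and 7, against 29.6%, 49.5%, 46.7% and 66.5% of all genes called. Their medians were 0.18, 0.31, 0.15 and -0.74, the 2-cell value being -0.82 without library 3. In zygotes 2 were higher and 6 lower with median-of-ratios scaling. Tox4, which joins Wdr82 in a phosphatase complex that acts on RNA polymerase II, was at 41.7 ± 6.97 FPKM in wild-type and 3.56 ± 0.607 in deletion 2-cell embryos (log2 fold change -3.23, limma adjusted p = 3.37e-12). Zygotes of these genotypes had 1.53 and 1.81 FPKM of Tox4. Zfp143, a transcription factor that binds Hcfc1, was at 1.89 ± 0.474 FPKM in wild-type and 8.87 ± 1.48 in deletion zygotes (log2 fold change 1.77, limma adjusted p = 9.61e-10). In 2-cell embryos it was at 25.9 ± 1.22 and 5.20 ± 0.911 FPKM (log2 fold change -2.13, limma adjusted p = 1.76e-10). The 3-week oocytes of these genotypes had 15.9 and 20.0 FPKM of Zfp143. Ppp1ca, a catalytic subunit of that phosphatase, rose at 3 weeks from 41.2 ± 4.45 to 66.5 ± 6.36 FPKM (log2 fold change 0.68, limma adjusted p = 2.70e-04) and at 3 months from 36.4 ± 2.84 to 81.5 ± 3.66 FPKM (log2 fold change 1.14, limma adjusted p = 3.10e-07), and its paralog Ppp1cb rose at 3 weeks from 8.42 ± 0.619 to 12.2 ± 1.5 FPKM (log2 fold change 0.49, limma adjusted p = 0.00338). Zc3h4, another partner of Wdr82, fell at 3 months from 20.1 ± 0.967 to 11.4 ± 1.47 FPKM (log2 fold change -0.78, limma adjusted p = 1.27e-06). Thap11, which also binds Hcfc1, was at 14.3 ± 1.95 FPKM in wild-type and 32.3 ± 6.42 in deletion zygotes (log2 fold change 1.11, limma adjusted p = 6.32e-07). The 3-week oocytes of these genotypes had 102 and 92.1 FPKM of Thap11. In 2-cell embryos these 6 lists had the same numbers of higher and lower calls without deletion library 3. The named changes kept their direction under all 3 other scalings and, apart from the 5 calls given above as lost, their call.

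**Figure D4:**
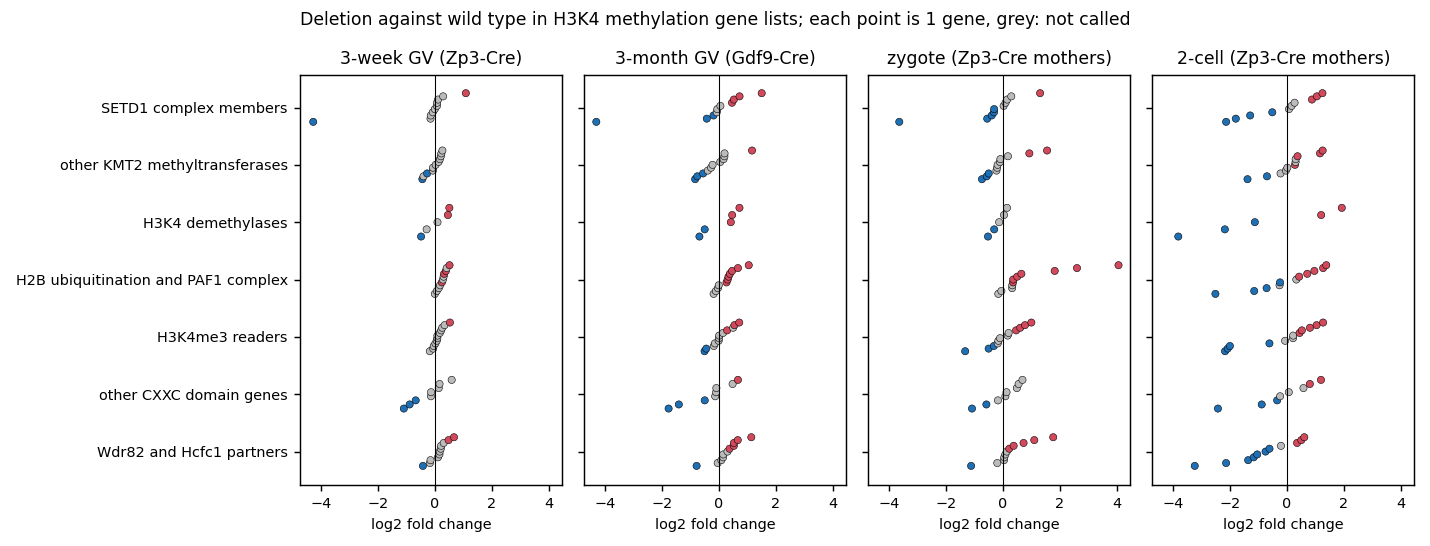
Log2 fold change on the log2(FPKM + 1) scale (horizontal axis) of every tested gene of 7 lists (vertical axis) in the 4 deletion comparisons; red points were called higher, blue points lower and grey points were not called. In 2-cell embryos the lists spread to both sides of 0, and in zygotes 7 genes of H2B ubiquitination and the PAF1 complex are called higher and none lower in the deposited scale, against 3 higher and 2 lower with median-of-ratios scaling.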

How the data were processed

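RNA was sequenced from 23 libraries of mouse GV oocytes, zygotes and 2-cell embryos. Per the labels' protocols, total RNA was purified with an RNeasy micro kit and made into libraries with a NEBNext Ultra kit. The authors deposited 1 table of FPKM per gene and library. The submitters' processing notes name TopHat2 2.0.12, Cufflinks 2.2.1 and the builds mm10 and mm9, without saying which build this table used. Strand handling is not given in the sources used here. FPKM is not a count, so no count model was run, and absolute depth is not known.

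FPKM was log2-transformed after adding 1. Genes at 1 FPKM or more in at least 2 libraries were kept (13776 of 24506), and limma 3.58.1 (R 4.3.3) fitted the means of the 8 groups jointly, using a mean-variance trend and 15 residual degrees of freedom, so that all groups shared 1 estimate of the spread. In each of 13 comparisons p-values were Benjamini-Hochberg adjusted over all tested genes, with a threshold of 0.05. Within-library ratios were tested by exact two-sided permutation within stages (80000 arrangements), adjusted over 6 ratios. Descriptive values came from Python 3.11.15, numpy 2.4.6 and pandas 2.3.3. The code was checked on simulated data.

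All 10 genes are described, though not every result of every comparison is given. From each of the other lists the text names genes that passed in a comparison, at most 2 per list and comparison, those with the largest change. The members and lists were chosen with earlier results of these data known. Alternatives changed the pseudocount, the filter, the scaling, the variance model, the libraries fitted and the replicate block, and left out each library in turn. The list counts under other scalings and without deletion 2-cell library 3 were added after seeing the data. The labels do not say what replicate numbers mean, and the main fit did not treat them as pairs. Deviations of same-numbered wild-type and deletion libraries from their group means had correlations of -0.069 to 0.058, which cannot settle whether such libraries share a source.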

Additional observations from a re-analysis of the deposited data

Results flagged for a closer look

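Deletion effects that were not equal across stages or across the GV oocyte models are collected here, each as the later or 3-month effect minus the other. Between the 3-month Gdf9-Cre and 3-week Zp3-Cre oocytes, Hcfc1 differed by 0.61 ± 0.14 (limma adjusted p = 0.0166) and Bod1l by -0.54 ± 0.15 (limma adjusted p = 0.0450). Of 22 alternatives 12 ended the Bod1l call, and 1 that of Hcfc1. All 3 Gdf9-Cre libraries had more Hcfc1 and less Bod1l than all 3 of their wild type, and granulosa cell markers were higher in those libraries too, whose part was not tested. Between zygotes and 3-week oocytes, Hcfc1 differed by -0.40 ± 0.14 (limma adjusted p = 0.0306) and Bod1l by -0.42 ± 0.15 (limma adjusted p = 0.0396), calls that 7 and 10 of 22 alternatives ended.

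Between 2-cell embryos and zygotes 7 genes differed. The deletion effect was more negative in 2-cell embryos for Bod1l, by -1.48 ± 0.16 (limma adjusted p = 1.71e-07), and for Hcfc1, by -0.74 ± 0.14 (limma adjusted p = 2.23e-04). It was more positive for Dpy30, by 1.10 ± 0.19 (limma adjusted p = 6.15e-05), for Rbbp5, by 1.03 ± 0.15 (limma adjusted p = 6.53e-06), for Cxxc1, by 1.51 ± 0.39 (limma adjusted p = 0.00277), and for Wdr82, by 0.48 ± 0.17 (limma adjusted p = 0.0270), a call that 7 of 21 alternatives ended. The rise of Ash2l was smaller by -0.43 ± 0.13 (limma adjusted p = 0.00989) in the deposited scale, with the opposite sign (0.15) under quantile normalization. Wild-type and deletion embryos of both stages also differed in summed oocyte markers and in summed markers of 2-cell genome activation. The part of those differences was not tested.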

How the results depend on the processing

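Of 70 calls among 130 results for the 10 genes, 48 kept their call and sign under every alternative, as did 18 of the 22 calls of deletion effects, all but those of Dpy30 and Wdr5 in 3-month oocytes and of Wdr82 and Bod1l in zygotes. Of the uncalled results 34 were called under at least 1 alternative. With other scalings 17 values changed sign where either value was called, some of them for the same result under both. Median-of-ratios scaling gave -0.54 (Rbbp5), -0.50 (Wdr5) and -0.45 (Dpy30) for the deletion in zygotes, 0.080 (Setd1b) and 0.11 (Wdr82) for wild-type zygotes against GV oocytes, and -0.35 (Bod1l) for wild-type 2-cell embryos against zygotes. Quantile normalization gave -0.39 for the deletion in zygotes (Rbbp5) and -0.28 in 2-cell embryos (Wdr5), and 0.30 (Setd1b) and 0.068 (Ash2l) for wild-type zygotes against GV oocytes. For wild-type 2-cell embryos against zygotes it gave -0.080 (Setd1b), -0.029 (Ash2l), 0.091 (Wdr5) and -0.52 (Bod1l). For differences of effects it gave -0.36 (Ash2l, zygotes against GV oocytes), 0.15 (Ash2l) and 0.56 (Setd1b, both 2-cell embryos against zygotes). The causes were not tested.

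Counts of the 10 genes that moved by more than 1.5 times were these. Array weights gave 4 for the 3-week deletion, 5 for the GV model difference, 6 for zygotes against GV oocytes and 3 for wild-type age. Fitting only the groups compared gave 4, 4 and 3 for the last 3 of these, and 3 for deletion 2-cell embryos against deletion zygotes. A pseudocount of 0.1 gave 1 for both the GV model and the zygote difference, as did equal totals. Median-of-ratios scaling gave 5 and quantile normalization 4 for the zygote difference, and quantile normalization gave 5 for wild-type 2-cell embryos against zygotes. Leaving out 1 library gave 1 to 2 for the GV model difference and 0 to 2 for the zygote difference, and the mean Rbbp5 ratio ranged from 0.42 to 0.47. Over all genes, the GV model difference had 673 calls, and 363 with a pseudocount of 0.1, 3228 with array weights and 2448 with only the groups compared. Wild-type age had 544, and 3246 and 2482 with these last settings, and deletion 2-cell embryos against deletion zygotes had 6887 and 4052 with only the groups compared.

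With the replicate number as a block, 6 genes passed in 3-month oocytes (Wdr5 lost, limma adjusted p = 0.0562), 5 in zygotes (Wdr82 lost, 0.0507) and 9 for wild-type zygotes against GV oocytes (Cxxc1 gained, 0.0495). The block left the counts in the other comparisons as they were, and what the numbers stand for is not known. With 2 wild-type 2-cell libraries, leaving out 1 leaves a lone library that is assumed to vary like the other groups. Absolute depth is not known, so limits for values near 0 cannot be given.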

Other observations

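Among the 45 pairs of the 10 genes, some levels ran in opposite directions over the 8 group means of log2(FPKM + 1). These correlations describe 8 points that share libraries and scaling, and no p is attached. The catalytic paralogs Setd1a and Setd1b had r = -0.83, and Ash2l and Cxxc1 had r = -0.84. Cxxc1 is low in the deletion groups by design, so its r with Ash2l largely restates the higher Ash2l of those groups. Rbbp5 and Wdr82, both highest in GV oocytes, had r = 0.90. Setd1a had r = -0.80 with Wdr82 and -0.72 with Rbbp5. Hcfc1, highest in wild-type 2-cell embryos, had r = -0.84 with Rbbp5.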
